A study of Mus musculus with 26 samples.

Results

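The genes described here encode aldehyde, retinol and steroid oxidoreductases of the mouse small intestinal epithelium: aldo-keto reductases (Akr), aldehyde dehydrogenases (Aldh), alcohol dehydrogenases (Adh), retinol dehydrogenases (Rdh), short-chain dehydrogenases named Dhrs, and the hydroxysteroid dehydrogenases named Hsd3b, Hsd11b and Hsd17b. They were found by matching the stems of gene symbols and numbered 81 of the 20409 gene symbols in the study. Of the 81, 71 were listed in all 4 expression tables, 63 were abundant enough to test in at least 1 comparison, and 35 passed the test in at least 1.

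These enzymes move hydride between a nicotinamide cofactor and an alcohol, aldehyde or ketone. In enterocytes they turn dietary retinal into retinol for storage, oxidise retinol to retinal and retinal to retinoic acid, interconvert active and inactive steroid hormones, and clear reactive aldehydes from food, lipid peroxidation and alcohol. BMP ligands from the villus mesenchyme signal through the receptor-activated factors SMAD1 and SMAD5 and the common partner SMAD4. TBX3 is a T-box transcription factor.

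Bulk polyA RNA sequencing was made on whole epithelium of the proximal small intestine. Every mutant deleted its floxed genes in the intestinal epithelium through tamoxifen-activated Cre expressed from the Villin promoter (Villin-CreERT2), and injections ran on 4 consecutive days. The mutants were SMAD1/5 iDKO (both genes deleted) at day 6 (n = 3), SMAD1/5 iDKO at day 30 (n = 2), SMAD1/4/5 iTKO (all 3 genes deleted) at day 30 (n = 3), SMAD4 iKO at day 6 (n = 2) and TBX3 iKO at day 30 (n = 3), days being counted from the first injection. Controls were littermates of matched sex that either lacked Cre and received tamoxifen or carried Cre and received oil. By their labels, the 3 day 6 controls of SMAD1/5 and day 30 controls 1 and 2 received tamoxifen, whereas day 30 controls 3 to 5 (of the SMAD1/4/5 line), both SMAD4 controls and the 3 TBX3 controls received oil. In the oil comparisons, gene deletion, Cre activity and tamoxifen cannot be told apart. Against the tamoxifen controls, which lacked Cre, gene deletion and Cre activity cannot be told apart either. The iDKO libraries are of the SMAD1/5 line and the iTKO libraries of the SMAD1/4/5 line. Between iTKO and iDKO, Smad4 deletion and mouse line therefore cannot be told apart. The labels name no animal for a library, so p-values measure the spread between these libraries.

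The deleted genes were read first. Smad4 fell to 5.11 and 7.19 FPKM (fragment counts scaled by transcript length and library depth) in SMAD4 iKO epithelium, against 22.9 and 24.9 FPKM in its controls. It also fell in iTKO, with 32.1 to 46.7 FPKM against 128 to 163 FPKM in the 5 day 30 controls. Tbx3 ranged from 7.53 to 22.9 FPKM in TBX3 iKO and from 45.5 to 56.3 FPKM in controls. The levels of Smad1 and Smad5 did not check the deletion: Smad1 overlapped between mutants and controls, and Smad5 was higher in day 6 iDKO (10.4 to 13.1 FPKM) than in controls (5.69 to 6.33 FPKM). Tbx3 was itself lower in day 6 iDKO, with a log2 change of -2.34 ± 0.10 (SE), in day 30 iDKO (-1.70 ± 0.19), in iTKO (-1.99 ± 0.17) and in SMAD4 iKO (-1.67 ± 0.14).

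Several of these genes were among the abundant transcripts of control epithelium. In the 5 day 30 controls, Akr1a1, an aldehyde reductase, averaged 577 ± 46.2 FPKM (SD), Adh6a averaged 461 ± 75.9 FPKM, Aldh9a1 averaged 442 ± 53.6 FPKM, Aldh1b1 averaged 438 ± 40.3 FPKM, Adh1 averaged 382 ± 37.0 FPKM and Aldh1a1 averaged 363 ± 73.6 FPKM. The 10 most abundant members held 62.4% to 65.7% of the summed level of all members in the controls of the 4 tables. That sum was 2506 to 3390 FPKM in day 6 iDKO and 3724 to 4023 FPKM in controls, 4614 to 5418 FPKM in day 30 iDKO and 5297 to 6186 FPKM in iTKO against 6036 to 6354 FPKM in controls. In SMAD4 iKO the sum was 4001 and 4372 FPKM against 5116 and 5438 FPKM in controls, and in TBX3 iKO it was 2943 to 3055 FPKM against 3410 to 3643 FPKM in controls. The summed levels therefore overlapped only between iTKO and its controls. The tables were normalised separately, so levels are compared only within a table.

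Most of the members that changed in the SMAD mutants fell. At day 6, 17 of 54 tested members were lower and 7 were higher in iDKO at a limma adjusted p under 0.05, which is 44.4% of the members, against 23.8% of all 10827 genes tested (8.26% lower and 15.5% higher). Their median log2 change was -0.16, whereas the median of all genes was 0.18. At day 30, 16 of 58 members were lower and 8 were higher in iDKO, or 41.4%, against 18.7% of all genes (9.31% lower and 9.43% higher). In iTKO, 10 of 58 were lower and 7 were higher, or 29.3%, against 18.1% of all genes (8.95% lower and 9.13% higher). In SMAD4 iKO, 6 of 57 were lower and 2 were higher, or 14.0%, against 3.42% of all genes (2.14% lower and 1.28% higher). In TBX3 iKO, 5 of 50 were lower and 2 were higher, also 14.0%, against 3.42% of all genes (2.08% lower and 1.34% higher). Between iTKO and iDKO, 1 of 58 members differed, or 1.72%, against 0.762% of all genes. The day 30 iDKO and iTKO comparisons share their 5 controls and are therefore given side by side, not as repeats of each other. The members' median log2 change was -0.19 in day 30 iDKO (all genes, 0.01), -0.15 in iTKO (0.01), -0.16 in SMAD4 iKO (0.03) and -0.20 in TBX3 iKO (-0.06). Against the 2 controls of its own SMAD1/5 line alone, 15 members passed in day 30 iDKO, against 10.7% of all genes. The calls of Adh4, Adh6a, Akr1b8, Akr7a5, Aldh3b1, Aldh6a1, Hsd17b13, Rdh11, Rdh16f2 and Rdh7 were lost there (limma adjusted p from 0.0561 for Aldh6a1 to 0.187 for Adh6a and Akr7a5). Against the 3 controls of its own SMAD1/4/5 line, iTKO lost the calls of Akr1b10, Aldh1a7, Aldh6a1 and Dhrs9 (adjusted p from 0.0574 for Dhrs9 to 0.0973 for Aldh1a7). Single libraries decided part of these counts, and the share of all genes called moved the same way in each of these cases. In iTKO that share was 13.7% without iTKO 2 and 10.4% without iTKO 3, against 18.1% with all libraries. In TBX3 iKO it was 0.807%, 0.602% and 0.48% without control 1, 2 and 3, and 1.29% without iKO 1, against 3.42%. In iTKO, 11 members passed without iTKO 2 and 8 without iTKO 3. In TBX3 iKO, 2 passed without control 1, 1 without control 2, 1 without control 3 and 2 without iKO 1. In SMAD4 iKO with any 1 library left out, and at day 30 without iDKO 1 or iDKO 2, a group held 1 library. Members passing are not counted there, and calls of named genes lost on such omissions are given below.

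**Figure D1:**
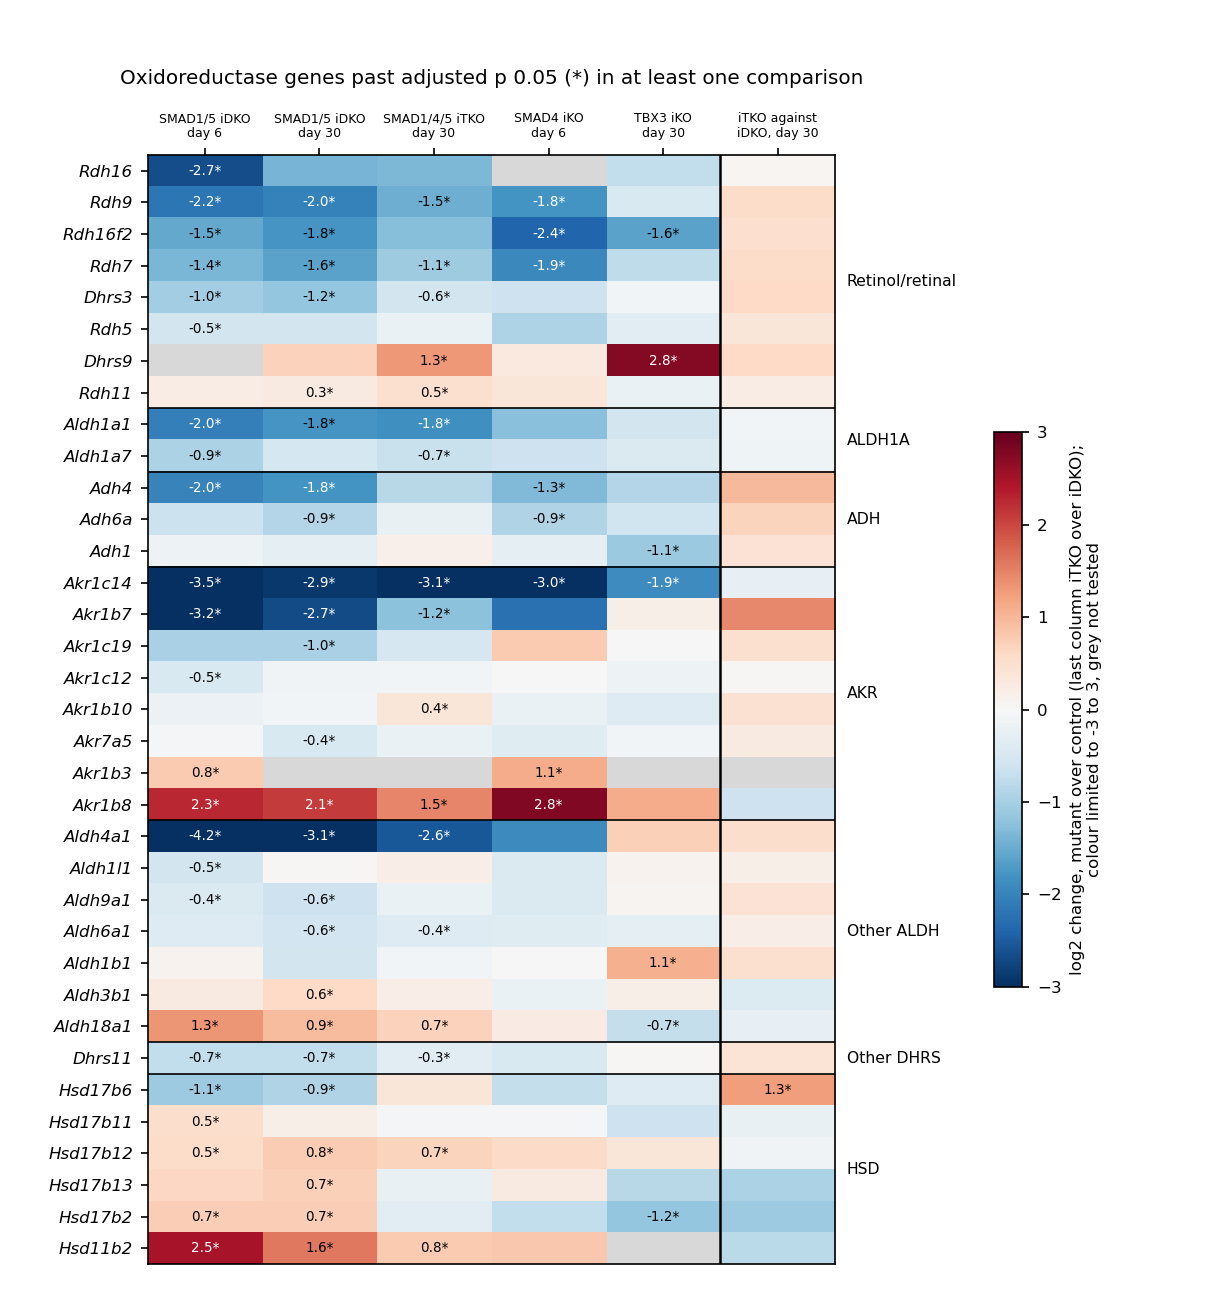
log2 changes of the 35 genes that passed the test in at least 1 comparison, by enzyme group, with the mutant over its control in the first 5 columns and iTKO over iDKO in the last. Starred values passed a limma adjusted p of 0.05, and grey cells were not tested. Blue dominates the first 2 columns, and Akr1c14 is starred in all 5 comparisons with controls.

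The day 6 and day 30 iDKO comparisons have no library in common. Of the 17 members lower at day 6, 12 were also lower at day 30 (70.6% of the day 6 list), close to the 68.1% of all genes lower at day 6 and tested on both days. The 12, of 16 on the day 30 list, were Adh4, Akr1b7, Akr1c14, Aldh1a1, Aldh4a1, Aldh9a1, Dhrs11, Dhrs3, Hsd17b6, Rdh16f2, Rdh7 and Rdh9. Of the members higher at day 6 and tested on both days, 5 of 6 were also higher at day 30 (Akr1b8, Aldh18a1, Hsd11b2, Hsd17b12 and Hsd17b2). That is 83.3% of the day 6 list, against 46.0% over all genes. It is 62.5% of the 8 on the day 30 list, against 70.6% over all genes. No member tested on both days passed the test in opposite directions. All 6 members lower in SMAD4 iKO were lower in day 30 iDKO, as were 77.1% of all genes lower in SMAD4 iKO and tested in both tables. The 6 were 37.5% of the members lower in day 30 iDKO, against 17.7% over all genes. Of the 5 members lower in TBX3 iKO, Akr1c14 and Rdh16f2 were also lower in day 30 iDKO (40.0%). Over all genes lower in TBX3 iKO and tested in both tables, 48.0% were also lower in day 30 iDKO. Aldh18a1 and Hsd17b2 were lower in TBX3 iKO and higher in iDKO, and the share of all genes with such opposite calls was not computed.

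**Figure D2:**
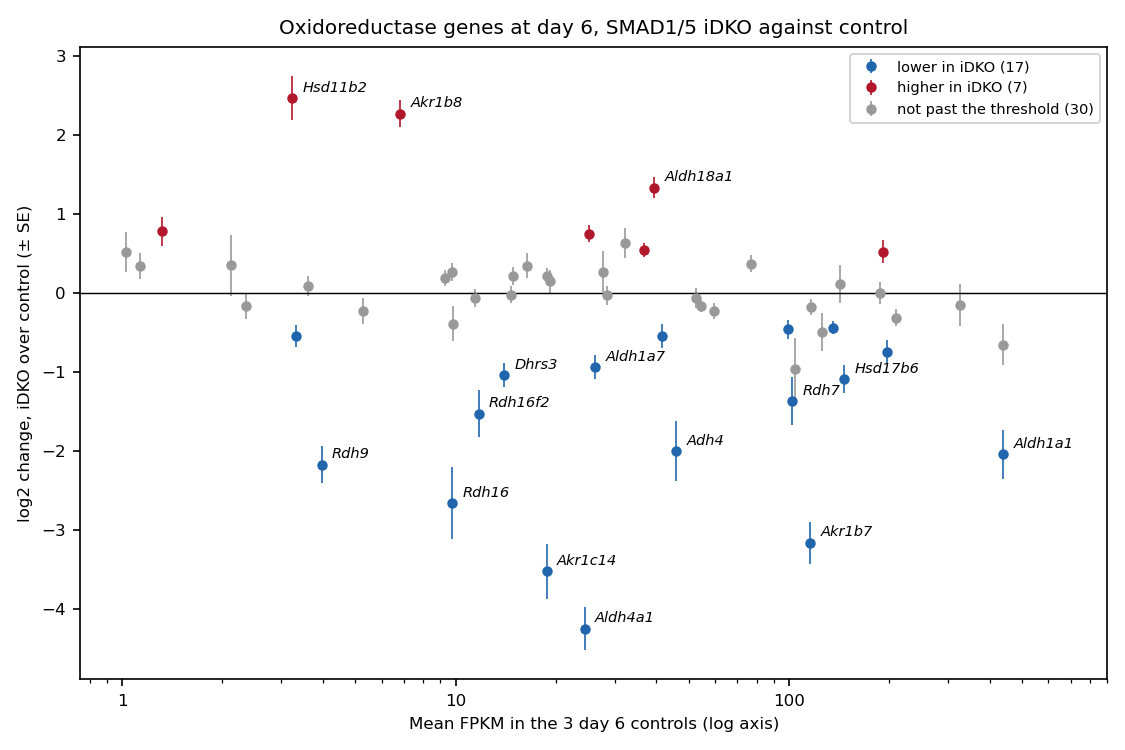
log2 change in day 6 SMAD1/5 iDKO over control, with standard error, against the mean control level of each of the 54 tested members. Members lower in iDKO span control levels from 3.32 FPKM (Rdh5) to 438 FPKM (Aldh1a1), and the 2 largest rises, Hsd11b2 and Akr1b8, start from 3.24 and 6.81 FPKM.

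Values of bulk epithelium cannot tell fewer cells of a type from less RNA per cell, and marker genes of several cell types moved with the groups. The summed level of 6 mid-villus enterocyte markers was 557 to 623 FPKM in day 6 iDKO and 1860 to 2080 FPKM in controls, 671 and 942 FPKM in day 30 iDKO and 1191 to 1330 FPKM in iTKO against 1518 to 2190 FPKM in controls. It was 655 and 951 FPKM in SMAD4 iKO against 1379 and 2311 FPKM in controls, and 2118 to 2407 FPKM in TBX3 iKO against 2403 to 2607 FPKM in controls. Of those 6 markers, 5 were lower in iDKO on each day, 3 in iTKO, 2 in SMAD4 iKO and 0 in TBX3 iKO. The sum of 6 T cell and intraepithelial lymphocyte markers was 76.7 and 116 FPKM in day 30 iDKO and 64.4 to 91.5 FPKM in iTKO, against 171 to 271 FPKM in controls. It was 38.6 and 62.4 FPKM in SMAD4 iKO against 114 and 144 FPKM in controls. All 6 Paneth cell markers were lower in day 30 iDKO and in iTKO. Their sum was 5827 and 6213 FPKM in iDKO and 3678 to 7733 FPKM in iTKO, against 13935 to 20210 FPKM in controls. The Paneth marker sum at day 6 set iDKO 2 (90.4 FPKM) and control 2 (65.0 FPKM) apart from the other libraries (2315 and 3658 FPKM in iDKO, 6415 and 7758 FPKM in controls). In TBX3 iKO, 6 villus tip markers summed to 4384 to 5679 FPKM against 7795 to 8272 FPKM in controls (0 higher and 1 lower), and 5 villus bottom markers summed to 10286 to 21220 FPKM against 2823 to 7965 FPKM (0 called). Of 5 villus bottom markers, 4 were higher in iTKO, and of 6 villus tip markers, 3 were lower in iTKO and 3 in SMAD4 iKO. Goblet cell markers were lower in day 30 iDKO and in iTKO (4 of 5 in each), and so were enteroendocrine markers (4 of 5 in iDKO and 5 of 5 in iTKO). Tuft cell markers were lower in day 6 iDKO (3 of 4 tested). The 7 epithelial markers summed to 4704 to 11112 FPKM over all libraries, and 4 of them were higher in iDKO on each day, whereas 2 were higher and 2 lower in iTKO. In contrast, the myeloid, B cell and stromal marker sums peaked at 11.02 FPKM in any library. Of those lists, Pdgfra was at 0 in all 5 day 30 controls and Cd79a in all 3 TBX3 controls. The part of these cell types in the results below was not tested.

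Retinol and retinal dehydrogenases or reductases were the enzyme group with the most members lower at day 6, 6 of 10 tested, with 0 higher and a median log2 change of -0.79. In day 30 iDKO 4 of 11 were lower and 1 higher, in iTKO 3 lower and 2 higher, in SMAD4 iKO 3 of 13 lower and 0 higher, and in TBX3 iKO 1 of 11 lower and 1 higher. The microsomal retinol dehydrogenases Rdh9, Rdh16, Rdh16f2 and Rdh7, which in rodents oxidise retinol and 3-alpha-hydroxysteroids with NAD, lie in a run of neighbouring genes on chromosome 10 that also holds Rdh1, Rdh19 and the related Hsd17b6. All 5 tested genes of the run were lower in day 6 iDKO, 4 in day 30 iDKO, 2 in iTKO, 3 in SMAD4 iKO and 1 in TBX3 iKO. These counts include Rdh9 at day 6 and Rdh16f2 in SMAD4 iKO, which passed the filter on low values through the controls alone and had to be lower. The start-site windows of Rdh9 (chr10:127776155-127776454, plus strand) and Rdh16f2 (chr10:127866226-127866525, plus strand), from RefSeq on GRCm38.p6, are shown because both neighbours are members of the run with calls in several comparisons. Each covers 250 bases before the start and 50 after it, and capitals mark the longest stretch that both share, 17 bases.
Rdh9: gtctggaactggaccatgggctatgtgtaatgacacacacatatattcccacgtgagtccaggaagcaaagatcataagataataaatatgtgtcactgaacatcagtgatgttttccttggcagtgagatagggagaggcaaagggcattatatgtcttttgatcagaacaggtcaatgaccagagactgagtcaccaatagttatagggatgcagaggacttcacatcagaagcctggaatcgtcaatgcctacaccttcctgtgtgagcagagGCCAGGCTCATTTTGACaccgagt
Rdh16f2: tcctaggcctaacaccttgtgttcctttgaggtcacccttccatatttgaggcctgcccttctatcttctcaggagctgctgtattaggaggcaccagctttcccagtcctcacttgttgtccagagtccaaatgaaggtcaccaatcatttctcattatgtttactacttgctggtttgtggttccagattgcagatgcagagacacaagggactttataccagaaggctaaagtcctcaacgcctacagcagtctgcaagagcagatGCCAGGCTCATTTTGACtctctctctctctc
The shared stretch occurs in 3 of the 32851 RefSeq windows, those of Rdh9, Rdh16f2 and Rdh16. These genes are close paralogs, and reads that fit several of them may have been split by the counting, so the single values are uncertain.

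Rdh9 had 0.318, 0.539 and 0.569 FPKM in day 6 iDKO, against 2.85, 3.86 and 5.19 FPKM in controls. The groups did not overlap, and because every iDKO library was under 1 FPKM the gene passed the filter on low values through the controls, so that it had to differ. Its log2 change was -2.17 ± 0.23 (SE), with a limma adjusted p of 0.0018. At day 30, Rdh9 had 1.91 and 2.28 FPKM in iDKO and 2.47, 2.63 and 5.51 FPKM in iTKO, against 8.26, 8.92, 10.1, 10.8 and 12.3 FPKM in controls. Both mutants lay below all controls, with log2 changes of -2.02 ± 0.26 in iDKO (limma adjusted p = 0.000475) and -1.45 ± 0.22 in iTKO (0.0016). In SMAD4 iKO, Rdh9 had 5.02 and 6.55 FPKM against 17.7 and 25.6 FPKM in controls (-1.80 ± 0.24, adjusted p = 0.0312), a call lost without any 1 of the 4 libraries (changes from -2.06 to -1.54). In TBX3 iKO its 4.32, 5.71 and 8.55 FPKM overlapped the 7.68, 8.15 and 9.33 FPKM of controls.

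Rdh7 was the most abundant gene of the run among the retinol dehydrogenases. It had 24.4, 43.3 and 54.6 FPKM in day 6 iDKO, against 81.9, 100.3 and 124 FPKM in controls, a log2 change of -1.37 ± 0.30 (limma adjusted p = 0.0208). The groups did not overlap, but the call was lost without control 3 (-1.22, adjusted p = 0.0668) or without iDKO 2 (-1.45, 0.0553). At day 30 it had 41.5 and 73.7 FPKM in iDKO and 59.5, 66.8 and 134 FPKM in iTKO, against 113, 165, 177, 207 and 212 FPKM in controls. The iDKO libraries lay below all controls, with a change of -1.62 ± 0.34 that lost its call without iDKO 1 (-1.21, adjusted p = 0.118). In iTKO, library 1 overlapped the lowest control, the change was -1.07 ± 0.29 (0.029), and the call was lost on leaving out controls 2, 3, 4 or 5 or iTKO 2 or 3 (adjusted p from 0.0511 to 0.132). In SMAD4 iKO, Rdh7 fell to 18.9 and 19.1 FPKM, against 70.7 and 77.4 FPKM in controls (-1.94 ± 0.13, adjusted p = 0.011), a call lost without iKO 1 or iKO 2 (0.0599 and 0.0892).

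Rdh16f2 was lower in 4 comparisons. It had 2.35, 3.42 and 6.19 FPKM in day 6 iDKO against 10.02, 11.6 and 13.6 FPKM in controls, and 3.32, 5.29 and 5.36 FPKM in TBX3 iKO against 13.0, 13.1 and 19.8 FPKM in controls. Neither pair of groups overlapped, and the log2 changes were -1.53 ± 0.30 and -1.61 ± 0.23 (limma adjusted p = 0.0147 and 0.0181). The day 6 call was lost without control 3 (-1.42, 0.0522) or iDKO 2 (-1.48, 0.0544), and the TBX3 call was lost without any 1 of the 3 controls (adjusted p from 0.0547 to 0.0683). In SMAD4 iKO it had 0.676 and 0.867 FPKM against 5.86 and 6.41 FPKM in controls. There the gene passed the filter through the controls and had to differ, and its call (-2.39 ± 0.20) was lost without any 1 library. In day 30 iDKO it had 1.31 and 4.02 FPKM against 6.67 to 11.6 FPKM in controls (-1.78 ± 0.47, 0.0247), a call lost without iDKO 1 (-1.12, 0.288). Rdh16 had 0.248, 1.76 and 1.88 FPKM in day 6 iDKO against 7.06, 10.2 and 11.99 FPKM in controls (-2.66 ± 0.46, adjusted p = 0.00923). At day 30 its values, 4.87 and 5.05 FPKM in iDKO and 2.25 to 7.74 FPKM in iTKO, did not pass the test against controls, where control 4 had 1.56 FPKM and the other 4 had 20.3 to 26.7 FPKM.

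**Figure D3:**
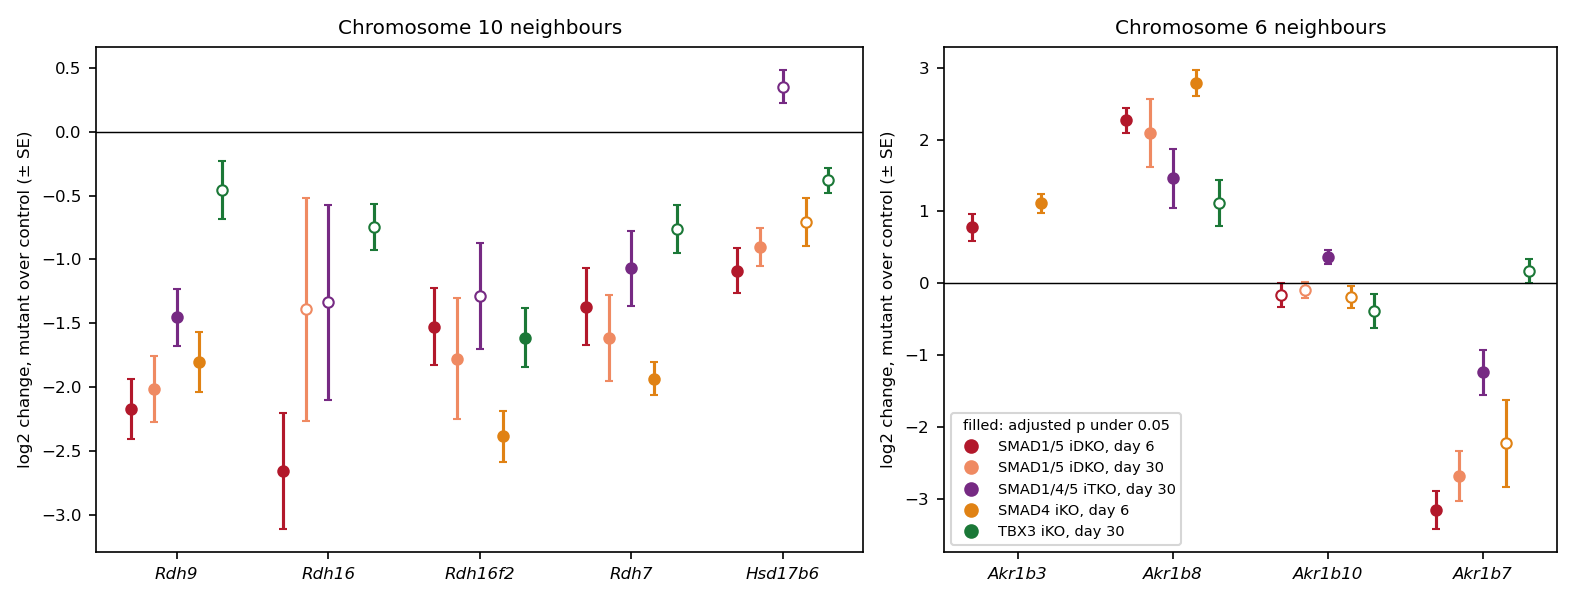
log2 changes with standard error of tested neighbours on chromosome 10 (left, 5 genes) and chromosome 6 (right, 4 genes) in 5 mutant-over-control comparisons. Filled points passed a limma adjusted p of 0.05. All chromosome 10 points lie below 0 except Hsd17b6 in iTKO (0.35), and on chromosome 6 Akr1b8 lies above 0 in every comparison, whereas Akr1b7 lies below 0 in the SMAD mutants.

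Dhrs3, a retinal reductase, had 5.46, 6.28 and 8.19 FPKM in day 6 iDKO against 12.7, 14.0 and 15.4 FPKM in controls (-1.04 ± 0.16, limma adjusted p = 0.00613). It was also lower in day 30 iDKO (-1.16 ± 0.19) and in iTKO (-0.56 ± 0.17), and the iTKO call was lost on leaving out control 1, 3 or 5 or iTKO 2 or 3. Rdh11, another retinal reductase, had 48.9, 49.0 and 49.5 FPKM in iTKO and 41.6 and 43.1 FPKM in day 30 iDKO, against 32.7 to 37.8 FPKM in controls. No mutant library overlapped the controls, and the changes were 0.49 ± 0.07 in iTKO (adjusted p = 0.000971) and 0.28 ± 0.08 in iDKO (0.0321). The iDKO call was lost on leaving out control 2, 3 or 5 or either iDKO library. Rdh5, which oxidises 11-cis-retinol in the eye, fell slightly at day 6 (-0.55 ± 0.14), a call lost without control 1 or 3 or iDKO 2 or 3.

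Dhrs9 was higher in TBX3 iKO and in iTKO. It is a short-chain dehydrogenase that oxidises retinol and 3-alpha-hydroxysteroids. Its start-site window (chr2:69380212-69380511, plus strand, RefSeq, GRCm38.p6) is shown because the gene had the largest rise in TBX3 iKO, and capitals mark the letters GGTGTGA, a T-box element.
Dhrs9: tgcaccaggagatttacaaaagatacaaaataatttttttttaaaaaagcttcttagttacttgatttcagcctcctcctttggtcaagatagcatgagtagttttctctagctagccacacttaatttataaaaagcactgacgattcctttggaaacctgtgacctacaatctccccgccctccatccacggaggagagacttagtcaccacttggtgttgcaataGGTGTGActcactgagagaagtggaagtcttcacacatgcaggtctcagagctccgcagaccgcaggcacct
Those letters, on either strand, occur in 3.98% of all windows and in 2 of the 71 windows of the 62 members that have one. Dhrs9 had 6.95, 8.34 and 9.57 FPKM in TBX3 iKO, against 0.755, 0.758 and 0.875 FPKM in controls. The groups did not overlap, and the gene passed the filter through the iKO libraries and had to differ. The mean was 10.4-fold higher in TBX3 iKO, with a log2 change of 2.75 ± 0.15 (limma adjusted p = 0.0012). In iTKO, Dhrs9 had 2.23, 2.78 and 4.10 FPKM, against 0.324, 0.754, 0.798, 1.39 and 1.71 FPKM in controls. All 3 iTKO libraries lay above the controls (1.29 ± 0.31, adjusted p = 0.0167), and the call was lost without iTKO 3 (1.08, 0.0875). Day 30 iDKO, at 1.51 and 2.12 FPKM, and SMAD4 iKO, at 0.903 and 1.41 FPKM against 0.607 and 1.11 FPKM in controls, did not pass (0.70 ± 0.36 and 0.30 ± 0.32). At day 6, 0.730, 0.843 and 1.77 FPKM in iDKO and 0.466 to 0.712 FPKM in controls were too low to test.

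Of the Aldh1a group, which includes the retinal dehydrogenases that make retinoic acid, Aldh1a1 was abundant and its close paralog Aldh1a7 was expressed. Aldh1a3 stayed at or under 0.413 FPKM in every library. Aldh1a2 stayed at or under 0.0703 FPKM in the 2 tables that list it (day 6 SMAD1/5 and TBX3). Aldh1a1 has 2 annotated starts on chromosome 19. The window of the downstream start (chr19:20601718-20602017, plus strand) holds 1 copy of GGAGCC, the core of a BMP-responsive SMAD element, in capitals. The upstream window (chr19:20492333-20492632, plus strand) holds 1 T-box element on the opposite strand.
Aldh1a1: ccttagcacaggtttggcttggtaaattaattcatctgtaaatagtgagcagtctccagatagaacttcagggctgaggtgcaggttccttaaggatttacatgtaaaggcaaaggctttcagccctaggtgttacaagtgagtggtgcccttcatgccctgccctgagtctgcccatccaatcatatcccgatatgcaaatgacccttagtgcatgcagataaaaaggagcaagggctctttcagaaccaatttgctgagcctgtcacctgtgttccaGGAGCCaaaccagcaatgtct
GGAGCC on either strand occurs in 30.8% of all windows, and in 8 of the 22 windows of members lower at day 6 (36.4%), so a match is common. The other SMAD letters searched, GGCGCC and GTCTAGAC, were in 0 of those 22 windows, against 11.9% and 0.213% of all windows. The antioxidant core TGACNNNGC was in 1 of the 22 (4.55%, against 12.4% of all) and the HNF4 motif CAAAGTCCA in 0 (0.475% of all).

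Aldh1a1 had 67.5, 123 and 132 FPKM in day 6 iDKO, against 321, 428 and 566 FPKM in controls. All iDKO libraries lay below all controls, and the level fell by 75.4% (log2 change -2.04 ± 0.31, limma adjusted p = 0.00598). The day 30 values were 87.1 and 126 FPKM in iDKO and 85.7, 86.2 and 134 FPKM in iTKO, against 261, 327, 364, 416 and 448 FPKM in controls. Both mutants lay below all controls (-1.76 ± 0.24 and -1.84 ± 0.21, adjusted p = 0.000663 and 0.000303). In SMAD4 iKO, 84.0 and 115 FPKM lay below the 194 and 289 FPKM of controls, but the change of -1.26 ± 0.25 did not pass the test (0.0746). In TBX3 iKO, 127, 203 and 262 FPKM overlapped the 245, 270 and 319 FPKM of controls (-0.55 ± 0.26, adjusted p = 0.346). Aldh1a7 was lower in day 6 iDKO, with 11.2, 13.8 and 15.2 FPKM against 23.2, 24.7 and 30.7 FPKM in controls (-0.94 ± 0.15), and reads shared with Aldh1a1 leave its own level uncertain. In iTKO its change of -0.66 ± 0.20 passed at 0.0444, and leaving out any library but iTKO 1 raised the adjusted p to between 0.0531 and 0.186.

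**Figure D4:**
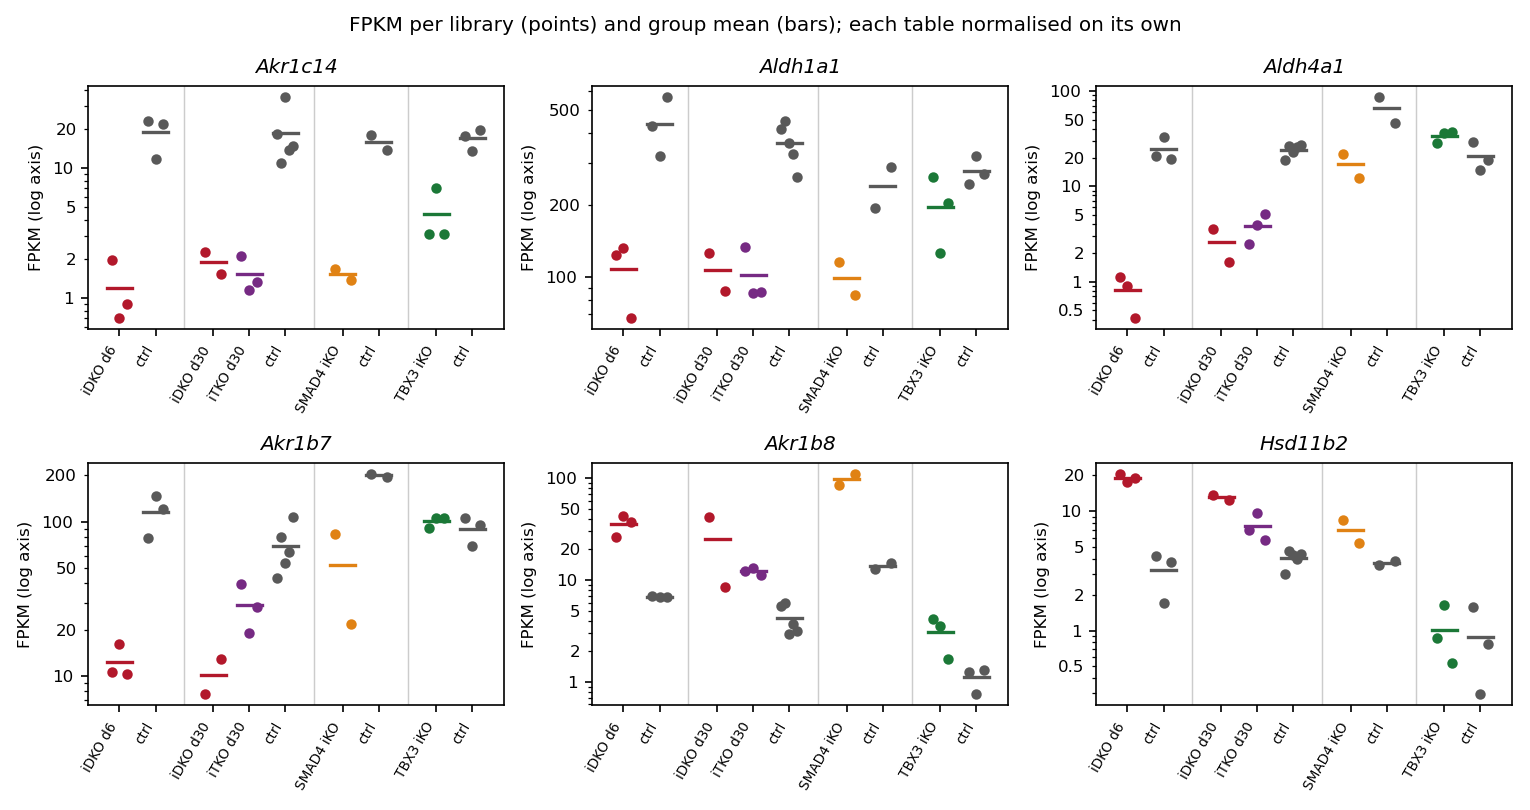
FPKM of Akr1c14, Aldh1a1, Aldh4a1, Akr1b7, Akr1b8 and Hsd11b2 in each library (points) with the group mean (bars), mutant left of its control, on log axes. Day 6 iDKO and controls do not overlap for any of the 6, and Akr1b8 in day 30 iDKO is spread from 8.46 to 41.8 FPKM.

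Alcohol dehydrogenases only fell where they passed the test: 1 of 4 tested in day 6 iDKO, 2 of 5 in day 30 iDKO, 0 of 5 in iTKO, 2 of 4 in SMAD4 iKO and 1 of 4 in TBX3 iKO. Adh4, a class II enzyme that accepts retinol, fell in 3 comparisons. It had 6.95, 8.92 and 21.1 FPKM in day 6 iDKO against 37.2, 48.8 and 51.7 FPKM in controls, a log2 change of -2.001 ± 0.38 (limma adjusted p = 0.0127) that lost its call without iDKO 2 (-1.86, 0.0503). In day 30 iDKO it had 5.12 and 20.8 FPKM against 29.6 to 49.9 FPKM in controls (-1.80 ± 0.45, 0.0181), and without iDKO 1, the lower library, the change was -0.84 (0.245). SMAD4 iKO had 14.2 and 14.5 FPKM against 30.6 and 43.5 FPKM in controls (-1.32 ± 0.20, adjusted p = 0.0405), lost without any 1 library. Adh6a, one of the most abundant members, was lower in SMAD4 iKO (459 and 471 FPKM, against 838 and 894 FPKM in controls) and in day 30 iDKO (174 and 354 FPKM, against 360 to 571 FPKM in controls). Its SMAD4 call (-0.90 ± 0.11) was lost without any 1 library, and its day 30 call (-0.88 ± 0.25) was lost on leaving out controls 2, 3, 4 or 5 or iDKO 1, without which the change was -0.36. Adh1, the class I enzyme of ethanol and retinol oxidation, was lower in TBX3 iKO alone among the comparisons tested, at 102, 106 and 148 FPKM against 235, 244 and 291 FPKM in controls (-1.12 ± 0.17, adjusted p = 0.0206). Its groups did not overlap there, but the call was lost without any 1 control or without iKO 1 or 3 (adjusted p from 0.0634 to 0.0857). Its SMAD mutant values overlapped controls in all 4 comparisons with log2 changes between -0.28 and 0.16. Whether the TBX3 change differs from those was not tested.

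Aldo-keto reductases moved both ways, with 3 of 11 lower and 2 higher in day 6 iDKO, 4 of 10 lower and 1 higher in day 30 iDKO, 2 lower and 2 higher in iTKO, 1 of 11 lower and 2 higher in SMAD4 iKO, and 1 of 10 lower in TBX3 iKO. Akr1c14, a 3-alpha-hydroxysteroid dehydrogenase, was the single member lower in all 5 comparisons with controls. Its start-site window (chr13:4059341-4059640, plus strand, RefSeq, GRCm38.p6) is shown for that reason, and capitals mark its 1 copy of GGAGCC, read on the opposite strand.
Akr1c14: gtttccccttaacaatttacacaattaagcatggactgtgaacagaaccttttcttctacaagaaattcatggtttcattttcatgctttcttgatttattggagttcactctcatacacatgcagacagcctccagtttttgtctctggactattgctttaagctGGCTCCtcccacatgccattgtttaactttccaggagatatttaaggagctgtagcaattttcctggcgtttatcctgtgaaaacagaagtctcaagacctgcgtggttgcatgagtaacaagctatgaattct
Akr1c14 had 0.706, 0.904 and 1.98 FPKM in day 6 iDKO, against 11.6, 21.8 and 22.9 FPKM in controls. No iDKO library reached the control range, and the mean fell by 93.6% (log2 change -3.52 ± 0.35, limma adjusted p = 0.00139). At day 30 it had 1.53 and 2.27 FPKM in iDKO and 1.16, 1.33 and 2.10 FPKM in iTKO, against 10.8, 13.7, 14.9, 18.4 and 35.1 FPKM in controls. Every mutant library lay below every control, with changes of -2.89 ± 0.37 and -3.14 ± 0.32 (adjusted p = 0.000486 and 0.000166). SMAD4 iKO had 1.39 and 1.69 FPKM against 13.9 and 17.9 FPKM in controls (-3.001 ± 0.20, adjusted p = 0.011). TBX3 iKO had 3.09, 3.13 and 7.04 FPKM against 13.5, 17.5 and 19.7 FPKM in controls. The groups did not overlap there either, and the change was -1.90 ± 0.31 (0.0254). The SMAD4 call was lost without either iKO library (-3.11 and -2.89, adjusted p = 0.0592 and 0.0888). The TBX3 call was lost without any 1 of the 3 controls or without iKO 1 or 3 (changes from -2.05 to -1.72, adjusted p from 0.0684 to 0.108). iTKO and iDKO did not differ past the threshold (-0.25 ± 0.40).

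The neighbours of Akr1c14 on chromosome 13 moved less. Of the 5 tested genes in that run, Akr1c14 and Akr1c12 were lower at day 6 and Akr1c14 and Akr1c19 were lower in day 30 iDKO. Akr1c12 had 62.6, 72.7 and 81.6 FPKM in day 6 iDKO against 92.3, 102 and 104 FPKM in controls (-0.46 ± 0.12), a call lost without control 1 or 3 or iDKO 2 or 3. Akr1c19 had 10.8 and 11.6 FPKM in day 30 iDKO against 18.9 to 27.6 FPKM in controls (-0.98 ± 0.20, limma adjusted p = 0.00772), a call lost without iDKO 1 (-0.93, 0.0767). In SMAD4 iKO the same gene stood above its controls (115 and 141 FPKM against 62.4 and 87.0 FPKM) without passing the test (0.79 ± 0.21). Near-identical copies in this run may share reads, which leaves values of single Akr1c genes uncertain.

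The Akr1b genes on chromosome 6 moved in opposite directions. Akr1b8 reduces retinal and lipid aldehydes, Akr1b3 is aldose reductase, and Akr1b7 is an aldose reductase-like enzyme that clears aldehydes formed in steroid synthesis. The start-site windows of Akr1b8 (chr6:34353896-34354195, plus strand) and Akr1b7 (chr6:34412112-34412411, plus strand), from RefSeq on GRCm38.p6, are shown because these neighbours went opposite ways. Neither holds any of the 6 motifs searched, and their longest shared stretch has 9 bases.
Akr1b8: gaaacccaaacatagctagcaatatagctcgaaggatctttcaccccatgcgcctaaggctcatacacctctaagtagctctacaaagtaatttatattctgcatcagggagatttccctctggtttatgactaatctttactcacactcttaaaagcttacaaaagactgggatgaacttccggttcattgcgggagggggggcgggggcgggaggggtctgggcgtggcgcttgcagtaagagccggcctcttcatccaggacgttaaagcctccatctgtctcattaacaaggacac
Akr1b7: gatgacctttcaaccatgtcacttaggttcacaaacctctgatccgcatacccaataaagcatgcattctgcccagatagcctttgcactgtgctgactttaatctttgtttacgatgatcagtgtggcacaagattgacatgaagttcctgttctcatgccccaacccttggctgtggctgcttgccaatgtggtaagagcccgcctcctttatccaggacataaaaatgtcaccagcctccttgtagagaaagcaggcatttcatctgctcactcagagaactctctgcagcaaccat
Akr1b8 had 26.3, 37.3 and 42.4 FPKM in day 6 iDKO, against 6.77, 6.77 and 6.90 FPKM in controls. Every iDKO library stood above the controls, the mean was 5.19-fold higher in iDKO, and the log2 change was 2.27 ± 0.17 (limma adjusted p = 0.000533). In SMAD4 iKO it had 84.5 and 111 FPKM against 12.7 and 14.5 FPKM in controls (2.79 ± 0.18, adjusted p = 0.011), the largest rise among the members there, which lost its call without either iKO library (2.98 and 2.59, 0.0543 and 0.0797).

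At day 30, Akr1b8 had 8.46 and 41.8 FPKM in iDKO and 11.3, 12.1 and 13.0 FPKM in iTKO, against 2.93, 3.16, 3.67, 5.52 and 5.87 FPKM in controls. All mutant libraries were above the controls, but the 2 iDKO libraries differed widely: the change was 2.09 ± 0.47 (limma adjusted p = 0.011) and became 0.97 (0.107) without iDKO 1. The iTKO change was 1.46 ± 0.41 (0.0312), and its call was lost without control 3, 4 or 5 or without any 1 of the 3 iTKO libraries (adjusted p from 0.0593 to 0.0904). TBX3 iKO, at 1.67, 3.56 and 4.13 FPKM, also lay above its controls at 0.755, 1.25 and 1.32 FPKM, without passing the test (1.12 ± 0.32, adjusted p = 0.126). Without iKO 3 it passed (1.45, 0.0428). Akr1b3 rose in day 6 iDKO (2.50, 2.52 and 2.71 FPKM, against 0.929, 1.39 and 1.64 FPKM in controls) and in SMAD4 iKO (26.8 and 27.3 FPKM, against 12.2 and 12.3 FPKM in controls). Its changes were 0.78 ± 0.18 and 1.11 ± 0.13, the first lost without control 3 or any 1 iDKO library and the second without any 1 library.

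Akr1b7 went the other way. It had 10.3, 10.6 and 16.1 FPKM in day 6 iDKO, against 78.1, 121 and 148 FPKM in controls, with no overlap and a log2 change of -3.16 ± 0.27 (limma adjusted p = 0.000795). Its day 30 levels were 7.64 and 12.9 FPKM in iDKO and 19.2, 28.2 and 39.8 FPKM in iTKO, against 43.0, 54.3, 64.1, 80.4 and 108 FPKM in controls. Both mutants lay below the controls, at -2.68 ± 0.35 (adjusted p = 0.000591) and -1.24 ± 0.31 (0.0185). The iTKO call was lost without iTKO 2 (-0.98, 0.0802) or iTKO 3 (-1.25, 0.0621). The iTKO libraries stood above both iDKO libraries, a difference of 1.44 ± 0.39 that did not pass the test (0.139). SMAD4 iKO had 21.7 and 82.8 FPKM against 197 and 206 FPKM in controls (-2.23 ± 0.60, adjusted p = 0.133), and TBX3 iKO overlapped its controls (0.17 ± 0.17). Of the other aldo-keto reductases, Akr1b10 rose by 0.37 ± 0.10 in iTKO, a call lost without iTKO 1 or 3, and Akr7a5, an aflatoxin aldehyde reductase, fell by 0.45 on the log2 scale in day 30 iDKO, a call lost without any 1 control or iDKO library.

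The remaining aldehyde dehydrogenases held the largest fall of any tested member. In this group 3 of 12 were lower and 1 higher in day 6 iDKO, 3 of 15 lower and 2 higher in day 30 iDKO, 2 lower and 1 higher in iTKO, 0 of 12 in SMAD4 iKO, and 1 of 11 lower and 1 higher in TBX3 iKO. Aldh4a1 is the mitochondrial enzyme that completes proline breakdown to glutamate, and Aldh18a1 catalyses the opposite arm, from glutamate towards proline. Aldh4a1 had 0.416, 0.903 and 1.12 FPKM in day 6 iDKO, against 19.2, 20.9 and 33.0 FPKM in controls. iDKO and control libraries were far apart, and the mean fell by 96.7% (log2 change -4.24 ± 0.28, limma adjusted p = 0.000323). The day 30 values were 1.59 and 3.57 FPKM in iDKO and 2.45, 3.93 and 5.07 FPKM in iTKO, against 19.0, 22.7, 25.7, 26.3 and 27.0 FPKM in controls. Both mutants lay far below the controls (-3.07 ± 0.28 and -2.55 ± 0.24, adjusted p = 6.61e-05 and 0.000116). SMAD4 iKO, at 12.3 and 21.96 FPKM, lay below its controls at 46.4 and 86.3 FPKM without passing the test (-1.91 ± 0.39, adjusted p = 0.0774), and TBX3 iKO, at 28.3, 36.0 and 36.9 FPKM, overlapped the 14.9, 18.7 and 29.0 FPKM of controls (0.73 ± 0.24, 0.184).

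Aldh18a1 rose where Aldh4a1 fell. It had 92.5, 99.1 and 107 FPKM in day 6 iDKO, against 32.3, 42.2 and 43.9 FPKM in controls, with no overlap and a log2 change of 1.33 ± 0.14 (limma adjusted p = 0.00153). At day 30 it had 288 and 404 FPKM in iDKO and 258, 263 and 348 FPKM in iTKO, against 149, 167, 179, 180 and 213 FPKM in controls (0.95 ± 0.17 and 0.70 ± 0.15, adjusted p = 0.00367 and 0.00916). In TBX3 iKO the direction was the reverse: 17.8, 22.2 and 24.2 FPKM lay below the 33.7, 36.2 and 36.2 FPKM of controls. That change was -0.72 ± 0.13 (0.0376), and it lost its call on leaving out any 1 library (adjusted p from 0.0523 to 0.152).

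Smaller changes in this group were in enzymes of fatty acid, amino acid and folate metabolism. Aldh9a1, which makes the carnitine precursor, was lower in day 6 iDKO (96.7, 97.1 and 105 FPKM, against 133, 135 and 138 FPKM in controls) and in day 30 iDKO (268 and 301 FPKM, against 404 to 535 FPKM in controls). Its changes were -0.44 ± 0.09 and -0.63 ± 0.12, the first lost without iDKO 1 or 3 (limma adjusted p = 0.0503 and 0.0604) and the second without iDKO 1 (-0.54, 0.0619). Aldh6a1, of valine breakdown, was lower in day 30 iDKO (-0.57 ± 0.12, lost without iDKO 1 at -0.35) and in iTKO (-0.38 ± 0.11, lost without any 1 library but control 1). Aldh1l1, a 10-formyltetrahydrofolate dehydrogenase, fell by 0.54 on the log2 scale at day 6, a call lost without any 1 library but iDKO 2. Aldh3b1, which oxidises lipid aldehydes, rose in day 30 iDKO (0.61 ± 0.14, lost without iDKO 1 at 0.53).

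Aldh1b1, a mitochondrial acetaldehyde and retinal dehydrogenase, changed in TBX3 iKO. It had 207, 244 and 260 FPKM there, against 100.5, 107 and 134 FPKM in controls. All iKO libraries stood above the controls, and the mean was 2.08-fold higher in TBX3 iKO (log2 change 1.06 ± 0.15, limma adjusted p = 0.0164). The call was lost without control 2 (0.98, 0.0681), control 3 (1.02, 0.0824) or iKO 1 (1.04, 0.0687). In the SMAD mutants its changes ran from -0.56 in day 30 iDKO (adjusted p = 0.0505) to 0.11 in day 6 iDKO, and none passed. Dhrs11, a short-chain reductase of steroids and carbonyls, was lower in day 6 iDKO (101, 116 and 137 FPKM, against 183, 184 and 224 FPKM in controls), at -0.74 ± 0.15, a call lost without iDKO 3 (-0.64, 0.0519). In day 30 iDKO it had 161 and 172 FPKM and in iTKO 215, 220 and 225 FPKM, against 253 to 313 FPKM in controls. All mutant libraries lay below the controls (-0.74 ± 0.09 and -0.33 ± 0.08), and the iTKO call was lost without iTKO 1 or 3.

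**Figure D5:**
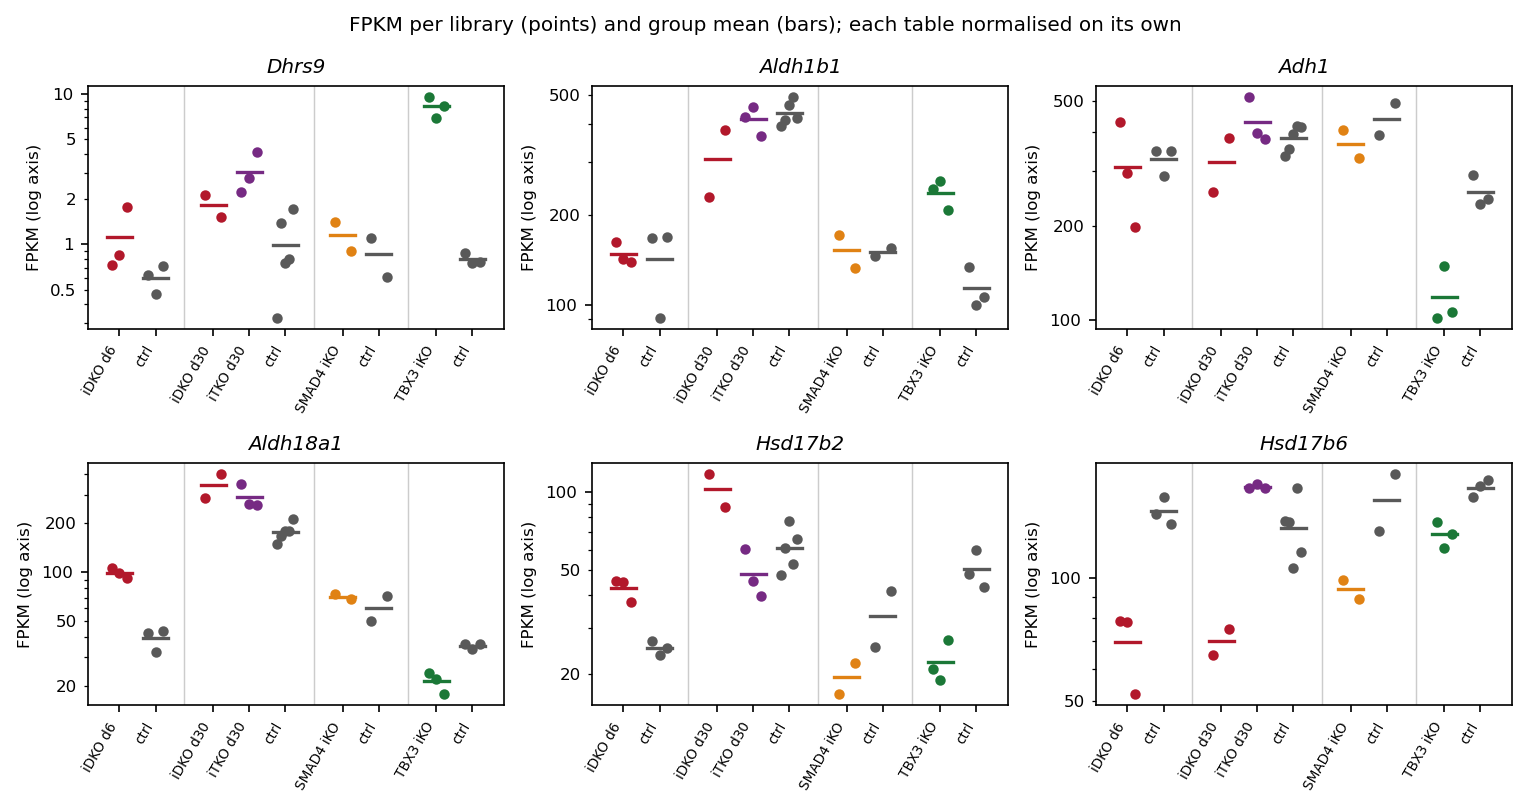
FPKM of Dhrs9, Aldh1b1, Adh1, Aldh18a1, Hsd17b2 and Hsd17b6 in each library (points) with the group mean (bars), mutant left of its control, on log axes. Dhrs9 in TBX3 iKO lies above 6.9 FPKM and all its controls below 0.9 FPKM, and Aldh18a1 and Hsd17b2 lie above controls in iDKO on both days and below controls in TBX3 iKO.

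Of 9 tested hydroxysteroid dehydrogenases, 4 were higher and 1 lower in iDKO on each day, 2 were higher and 0 lower in iTKO, and 0 passed in SMAD4 iKO. In TBX3 iKO, 0 of 7 were higher and 1 was lower. Hsd11b2, which inactivates glucocorticoids, had 17.7, 19.0 and 20.7 FPKM in day 6 iDKO, against 1.71, 3.79 and 4.24 FPKM in controls. All iDKO libraries exceeded the controls, and the mean was 5.91-fold higher in iDKO (log2 change 2.47 ± 0.28, limma adjusted p = 0.00223). Its day 30 levels were 12.6 and 13.8 FPKM in iDKO and 5.76, 7.01 and 9.62 FPKM in iTKO, against 2.98, 3.99, 4.31, 4.39 and 4.68 FPKM in controls. Every mutant library lay above the controls (1.59 ± 0.20 and 0.79 ± 0.17, adjusted p = 0.00042 and 0.0102). iTKO lay below iDKO by 0.81 on the log2 scale, which did not pass the test (0.137). The reductase Hsd11b1, which works in the opposite direction, stayed at or under 0.488 FPKM in every library.

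Hsd17b2, which oxidises oestradiol and testosterone to weaker forms, was higher in iDKO and lower in TBX3 iKO. It had 37.8, 45.0 and 45.3 FPKM in day 6 iDKO, against 23.6, 25.2 and 26.7 FPKM in controls (0.75 ± 0.10, limma adjusted p = 0.00475), and 87.3 and 117 FPKM in day 30 iDKO, against 47.8 to 77.1 FPKM in controls (0.75 ± 0.20, 0.027). Neither pair overlapped, but the day 30 call was lost without control 4 (0.70, 0.0505) or iDKO 1 (0.54, 0.269). TBX3 iKO had 19.0, 20.9 and 27.1 FPKM against 43.3, 48.3 and 59.96 FPKM in controls (-1.17 ± 0.17, adjusted p = 0.0204). The TBX3 call was lost without any 1 control or iKO 1 (adjusted p from 0.0641 to 0.0783). iTKO, at 39.7, 45.4 and 60.1 FPKM, overlapped controls (-0.33 ± 0.18) and lay below both iDKO libraries (-1.08 ± 0.22, adjusted p = 0.0629).

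Hsd17b6, an oxidative 3-alpha-hydroxysteroid dehydrogenase related to the Rdh genes beside it, was the 1 member that differed between iTKO and iDKO. It had 166, 166 and 170 FPKM in iTKO, against 64.9 and 75.2 FPKM in iDKO, and the 5 controls had 106, 116, 137, 138 and 166 FPKM. iTKO was thus above iDKO (1.26 ± 0.16, limma adjusted p = 0.00726), and the call was lost without iDKO 1 (1.15, 0.0944). iDKO lay below the controls (-0.90 ± 0.15, adjusted p = 0.00228), whereas iTKO did not pass against them (0.35 ± 0.13, 0.0876). At day 6 it had 51.9, 78.2 and 78.6 FPKM in iDKO against 136, 144 and 158 FPKM in controls (-1.09 ± 0.18).

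Hsd17b12, a ketoacyl reductase of very long chain fatty acid elongation, rose in 3 comparisons and passed under every alternative in each. It had 52.3, 53.9 and 54.6 FPKM in day 6 iDKO against 34.9, 35.1 and 40.2 FPKM in controls (0.54 ± 0.09, limma adjusted p = 0.00855). At day 30 it had 114 and 144 FPKM in iDKO and 114, 122 and 123 FPKM in iTKO, against 65.1 to 83.3 FPKM in controls (0.77 ± 0.12 and 0.67 ± 0.10). Mutants and controls did not overlap on either day. Hsd17b11, a lipid droplet enzyme, rose by 0.52 ± 0.14 at day 6 (adjusted p = 0.04). With the replicate number as a block its adjusted p was 0.0585, with each library centred on its median it changed by 0.35 (0.198), and any 1 library left out other than control 2 also ended the call. Hsd17b13, another lipid droplet enzyme, rose in day 30 iDKO (0.72 ± 0.21, adjusted p = 0.0411), a call lost without control 1, 3 or 4 or either iDKO library.

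Members that passed in no comparison include some of the most abundant. Akr1a1 had 157, 167 and 180 FPKM in day 6 iDKO against 193, 203 and 231 FPKM in controls, and its log2 changes of -0.31 to -0.15 in the 5 comparisons with controls did not pass, although the mutant and control libraries overlapped in none of the 5. Dhrs1, an endoplasmic reticulum dehydrogenase, changed by -0.24 to 0.22. In all, 28 tested members passed in no comparison, with log2 changes from -0.50 to 0.51 at day 6. The 18 members tested in no comparison peaked at 1.58 FPKM in any library that lists them.

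Other genes of retinoid, aldehyde and steroid handling, listed outside these families, were read for comparison. Of 13 tested carbonyl and aldehyde enzymes outside the families, 7 were lower and 0 higher at day 6 (median log2 change -0.81, against 0.18 for all genes). These included Aoc1, diamine oxidase (125 ± 33.996 FPKM in iDKO and 334 ± 31.2 FPKM in controls, SD, n = 3 each), and Hpgd, which inactivates prostaglandins (60.1 ± 21.2 FPKM in iDKO and 202 ± 38.4 FPKM in controls). In day 30 iDKO, 7 of 12 were lower and 0 higher, in iTKO 5 of 12, in SMAD4 iKO 3 of 13 and in TBX3 iKO 1 of 11. Of the retinoid handling list, 3 of 14 were lower at day 6, 6 of 17 lower and 2 higher in day 30 iDKO, and 4 lower and 2 higher in iTKO. In SMAD4 iKO 1 of 15 was lower and 1 higher, and in TBX3 iKO 2 of 12 were lower. Lrat, which esterifies retinol for storage, was lower in all 5 comparisons with controls (log2 changes -1.46, -2.31, -1.76, -1.90 and -0.86 in day 6 iDKO, day 30 iDKO, iTKO, SMAD4 iKO and TBX3 iKO). Rarb, a retinoic acid receptor, had 3.88 ± 0.31 FPKM in iTKO (n = 3) and 0.642 ± 0.29 FPKM in the 5 controls (log2 change 1.97 ± 0.28, limma adjusted p = 0.00107). That control mean is under the 1 FPKM of the filter, and whether Rarb passed the filter through mutant libraries alone was not checked. Of the steroid list, 3 of 12 were higher and 1 lower at day 6, 3 of 11 higher and 2 lower in day 30 iDKO and in iTKO alike, 1 of 12 higher in SMAD4 iKO and 1 of 12 lower in TBX3 iKO. H6pd, which supplies NADPH to Hsd11b1, was higher in day 6 iDKO (1.58), day 30 iDKO (1.54), iTKO (0.95) and SMAD4 iKO (1.11). Of 11 tested genes of the NRF2 response, 2 were higher and 3 lower at day 6, among them Osgin1 (-1.37 ± 0.10). Of 12 tested, 1 was higher and 1 lower in day 30 iDKO, 1 lower in iTKO and 1 lower in SMAD4 iKO, and of 11 in TBX3 iKO 1 was higher and 1 lower. Between iTKO and iDKO, 0 genes of these 4 lists passed (limma). Calls of single genes in these lists, Lrat and H6pd among them, were not rerun with libraries left out or under the other alternatives.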

How the data were processed

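The authors deposited 4 tables of FPKM, normalised separately and covering 26 libraries; they hold no counts, so limma was used and not a count test. Per the submitters' processing notes, HISAT2 2.2.1 and featureCounts 2.0.1 (Subread) were used with the builds GRCm39 and mm10; which build each table used, and whether reads were counted by strand, is not given in the sources used here. Where a symbol was repeated, its first row was kept and the later rows were dropped. Genes were kept where the number of libraries at 1 FPKM or more reached the size of the table's smallest group. In R 4.3.3, limma 3.58.1 modelled log2(FPKM + 0.5) with a mean-variance trend, 1 fit per table, the day 30 groups sharing 1 estimate of the spread. P-values were adjusted by Benjamini-Hochberg over all genes tested and called under 0.05. A change on this scale understates that of low genes. Scripts were tested on simulated data.

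The tables' low values are spaced in steps that put the depth at about 21.6 to 31.3 M fragments for day 6 SMAD1/5, 12.7 to 18.0 M for day 30 SMAD and 10.1 to 18.8 M for TBX3; the depth is unknown for SMAD4. Reads of near-identical genes (Akr1b, Akr1c, Adh6a and Adh6b, Aldh1a1 and Aldh1a7, Hsd3b and the Rdh run) may be shared, and Aldh3b2 overlaps Aldh3b3, as Dhrs13 does its antisense gene.

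Whether replicate numbers pair the day 6 SMAD1/5 libraries is not settled. Deviations of same-numbered libraries from their group means correlated at 0.143, 0.583 and 0.221. Only iDKO 2 correlated best with the control of its own number, whereas iDKO 1 correlated best with control 3 and iDKO 3 with control 1. The labels state no pairing, so the replicate number was used as a block only among the alternatives.

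Members and lists were chosen with earlier results of these data known. Genes named are Akr1b8, Akr1c14, Aldh1a1 and Dhrs9 in every comparison, the 10 largest rises and 10 largest falls past the threshold per comparison, the 10 members with the highest mean level in controls, the deleted genes, and up to 4 genes per other list by adjusted p. Akr1c12, Akr7a5, Aldh1l1, Rdh5, Aldh1a2, Aldh1a3 and Hsd11b1 were named after their values were seen. One gene of the Hsd17b family is not reported here. Start-site windows came from RefSeq on GRCm38.p6, and both strands were searched. Alternatives were other pseudocounts (0.1 and 1), no filter, a filter at 5 FPKM, median centring, quantile normalisation, no trend, a robust prior, the replicate block, other control sets and leaving out each library.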

Additional observations from a re-analysis of the deposited data

Results flagged for a closer look

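Among 58 members checked in the 5 day 30 controls, 4 had 1 control far from the other 4, a gap that chance gives in about 1 in 20 groups. Rdh16 had 1.56 FPKM in control 4, against 20.3 to 26.7 FPKM in the other 4 controls. Aldh9a1 had 535 FPKM in control 1, against 404 to 434 FPKM in the others. Aldh1l1 had 86.4 FPKM in control 3, against 106 to 111 FPKM. Aldh3b2, which overlaps Aldh3b3, had 1.48 FPKM in control 4, against 0.735 to 0.817 FPKM. Of the 53 members tested on both days, 0 moved in opposite directions past the threshold in iDKO.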

How the results depend on the processing

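Under every alternative tried, 14 of 24 members stayed past the threshold in day 6 iDKO, 10 of 24 in day 30 iDKO, 6 of 17 in iTKO, 1 of 7 in TBX3 iKO (Dhrs9, which passed the filter through the iKO libraries alone and had to differ) and 0 of 8 in SMAD4 iKO, and the 1 call between iTKO and iDKO was lost. The 14 at day 6 include Rdh9, which was not tested under the filter at 5 FPKM. It passed the main filter through the controls alone and had to be lower. Leaving out 1 library gave 17 to 24 members in day 6 iDKO, 8 to 16 in iTKO and 1 to 8 for TBX3. Over all genes it called 10.1% to 21.4%, 10.4% to 17.2% and 0.48% to 3.53%. Leaving out 1 control gave 20 to 22 members in day 30 iDKO (15.8% to 18.6% of all genes). Leaving out 1 iTKO library gave 1 member between iTKO and iDKO (0.268% to 0.419%). For SMAD4, and without 1 day 30 iDKO library, a group held 1 library, so members passing are not counted. With no filter, 5 members passed in SMAD4 iKO (1.37% of all genes) and 2 in TBX3 iKO (0.694%). Using the controls of the same line, 15 passed in day 30 iDKO (10.7% of all genes). Without both number 2 libraries, 16 passed at day 6 (15.9% of all genes).

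With the replicate block, 24 members passed at day 6 (27.3% of all genes), 23 of them shared, and Hsd17b11 alone lost its call there. In the other comparisons, same-numbered libraries correlated at -0.312 to 0.283. There the block gave 11 members in day 30 iDKO (6.25% of all genes), 7 in iTKO (7.52%) and 0 between iTKO and iDKO (0.067%). It gave 11 for SMAD4 (6.8%) and 1 for TBX3 (0.408%).

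Small differences between iTKO and iDKO reversed. Aldh1a1 (-0.07) became 0.0205 with the replicate block and ran from -0.34 (without iDKO 2) to 0.19 (without iDKO 1) with 1 library left out, with 0.04 without iTKO 2 and 0.03 without iTKO 3. Akr1b8 (-0.63) became 0.49 without iDKO 1, and it was -1.75 (limma adjusted p = 0.0274) without iDKO 2. The cause was not tested. Values under 1 FPKM and groups of 2 or 3 libraries limit the precision.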
